A study of Mus musculus with 232 samples.

Results

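Single let-7-transfected Dgcr8-/- mouse embryonic stem cells (ESCs) were compared with wild-type (WT) ESCs, and mock-transfected and miR-294-transfected Dgcr8-/- cells were set beside them to find the genes that differed from WT only where loss of miRNAs was combined with let-7. The series held 232 sequencing runs of 182 cells, and the cells were taken by the name of their sample, with the runs of a cell summed. There were 48 let-7-transfected cells and 16 WT cells, beside 60 mock-transfected and 58 miR-294-transfected cells. All 4 conditions were grown in medium with serum, LIF and the 2 inhibitors PD0325901 and CHIR99021, and cells were captured 24 h after transfection. The Dgcr8-/- conditions share the knockout, and WT cells carried no knockout and are labelled with no mimic. Whether WT cells were given the transfection reagent is not clear from the labels. One microfluidic chip was used for each condition, so chip and condition cannot be told apart. No separate cultures were named, each condition was therefore 1 sample, and no test between conditions was possible. The values below are levels, ratios and spreads over cells. The authors had removed 5 let-7-transfected cells in which the targets of let-7 were not lower, so the let-7 targets were part of how the cells were chosen. They had removed 1 miR-294-transfected cell on miR-294 targets in the same way.

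Dgcr8 is the partner of Drosha that cuts primary miRNA transcripts, and without it almost no mature miRNAs are made. ESCs normally express miR-294 and related miRNAs, which promote the G1/S transition, whereas the let-7 family accumulates during differentiation and represses growth and oncofetal genes. The RNA-binding proteins Lin28a and Lin28b block let-7 maturation and are themselves let-7 targets, so that stem cells and let-7 oppose each other. A miRNA binds mRNAs chiefly through its seed, bases 2 to 8 from the 5′ end, which pairs with a complementary stretch in the 3′ UTR.

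The mimic is named let-7i in the sample titles, let-7b in the series description and let-7c in the paper. The mature sequences of these 3 and of miR-294 (RefSeq, GRCm38.p6, 5′ to 3′, seed in capitals) are shown because the names disagree.
let-7c: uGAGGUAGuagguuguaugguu
let-7b: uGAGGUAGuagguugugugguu
let-7i: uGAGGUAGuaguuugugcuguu
miR-294-3p: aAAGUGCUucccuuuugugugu
The 3 let-7 sequences share the seed. let-7c differs from let-7b at 1 position (17) and from let-7i at 4 positions between 12 and 19, counted from the 5′ end. A seed match to any of them is CTACCTC in the mRNA, and a match to miR-294 is AGCACTT.

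The matches in 3′ UTRs of genes described below (Gencode M21 transcripts, GRCm38, 27 bases around each match, match in capitals) show what the mimic could pair with. Lin28a, Trim71 and Sall4 are the markers of this comparison, Rrm2 and Ccnf are cell cycle genes, and Cdkn1a is an inhibitor of cyclin-dependent kinases with matches to miR-294.
Lin28a, minus strand, chr4:134005186-134005212: tgcacagcctgttgaaCTACCTCattt
Lin28a, minus strand, chr4:134004548-134004574: tgagatcgccacaaacCTACCTCactg
Trim71, minus strand, chr9:114512469-114512495: caacattgcctaagtcCTACCTCagct
Trim71, minus strand, chr9:114512373-114512399: aagtgataatttctatCTACCTCaact
Trim71, minus strand, chr9:114509044-114509070: gtttagtatggattttCTACCTCaatt
Trim71, minus strand, chr9:114509018-114509044: tttggcaaaaagttgtCTACCTCacgt
Sall4, minus strand, chr2:168748937-168748963: gagggctttaatttatCTACCTCaatt
Rrm2, plus strand, chr12:24713346-24713372: ctaaaaagctgtgtagCTACCTCagtc
Ccnf, minus strand, chr17:24222580-24222606: gaggggacagtaatgcCTACCTCacag
Cdkn1a (miR-294), plus strand, chr17:29099812-29099838: atcctcagacctgaatAGCACTTtgga
Cdkn1a (miR-294), plus strand, chr17:29100484-29100510: ataccgtgggtgtcaaAGCACTTagtg
A match describes the letters in this stretch and is not in itself a site at which repression was measured.

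The cells were inspected before they were compared. In 48 of the 50 cells with 2 runs the runs agreed, with a median chi-square per gene of 1.53. In 1 let-7-transfected and 1 WT cell the runs differed as much as different cells do (chi-square per gene 98.3 and 179), and these were kept as the names gave them and left out in an alternative. The counts of 3 pairs of let-7-transfected cells and 1 pair of miR-294-transfected cells agreed as closely as runs of 1 cell (at most 5.42, where the next closest pair of cells had 35.4). Each such pair was averaged and counted as 1 cell, leaving 45 let-7-transfected and 57 miR-294-transfected cells. Counts per cell had a median of 1521869 in let-7-transfected cells (808409 to 3979274) and of 1307481 among WT cells (513521 to 3260922), and the median number of genes detected was 8022 and 7734. Dgcr8 itself was counted in all 16 WT cells (lowest 2.29, median 57.3, highest 587 normalized counts) and in 42 of 45 let-7-transfected cells (0, 11.4 and 295). The log2 ratio of its mean to that of WT was -1.50 in let-7-transfected, -1.18 in mock-transfected and -0.80 in miR-294-transfected cells. Whether the deleted part of the gene is counted apart is not known.

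Markers of ESCs were present in the let-7-transfected cells, with Zfp42 counted in 45, Pou5f1 and Nanog in 44, Sox2 and Sall4 in 41 and Esrrb in 38 of 45 cells. The defining fibroblast genes Col1a1, Col1a2, Col3a1, Lum and Postn were at 0 in all 45 let-7-transfected cells, Thy1 was counted in 2 cells with 6 counts in all, and Dcn in 2 cells with a highest normalized count of 351. Of the 3 marker genes of the comparison, Trim71 and Sall4 were lower in let-7-transfected cells alone, and Lin28a was nearly absent from mock-transfected cells too.

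The let-7-transfected cells correlated less with WT cells than either other Dgcr8-/- condition did. The measure was the mean Pearson correlation of a cell with the WT cells, other than itself, over the log2 normalized counts of the 11178 genes whose count averaged 5 or more. In let-7-transfected cells it ran from 0.382 to 0.542 with a median of 0.484. Among WT cells it ran from 0.526 to 0.614 with a median of 0.590. Thus 38 of 45 let-7-transfected cells lay below the lowest WT cell, against 17 of 60 mock-transfected cells (median 0.545) and 3 of 57 miR-294-transfected cells (median 0.583). Each let-7-transfected cell correlated more with mock-transfected than with WT cells (45 of 45). For 29 cells the closest other condition was miR-294-transfected, for 16 mock-transfected and for 0 WT. Median correlations of let-7-transfected cells were also low with mock-transfected (0.5025), miR-294-transfected (0.506) and other let-7-transfected cells (0.505). The low value with WT cells was therefore not particular to WT.

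Let-7-transfected cells were also less alike among themselves, with a median correlation to other cells of their condition of 0.505, where WT cells had 0.590 and miR-294-transfected cells 0.607. Over the 45 cells, likeness to WT went with the mean level of G2/M genes (Pearson r = 0.73, Spearman rho = 0.78) and of G1/S genes (r = 0.68, rho = 0.72). It also went with the number of genes detected (r = 0.60, rho = 0.59). The values were smaller for the level of pluripotency genes (r = 0.51, rho = 0.51) and of listed let-7c targets (r = 0.47, rho = 0.55). They were smallest for counts per cell (r = 0.26, rho = 0.21). These correlations run over cells of 1 chip that share the reference cells and the size factors, and they are descriptions only. The genes in the scores and the number of genes detected enter the likeness itself.

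**Figure D1:**
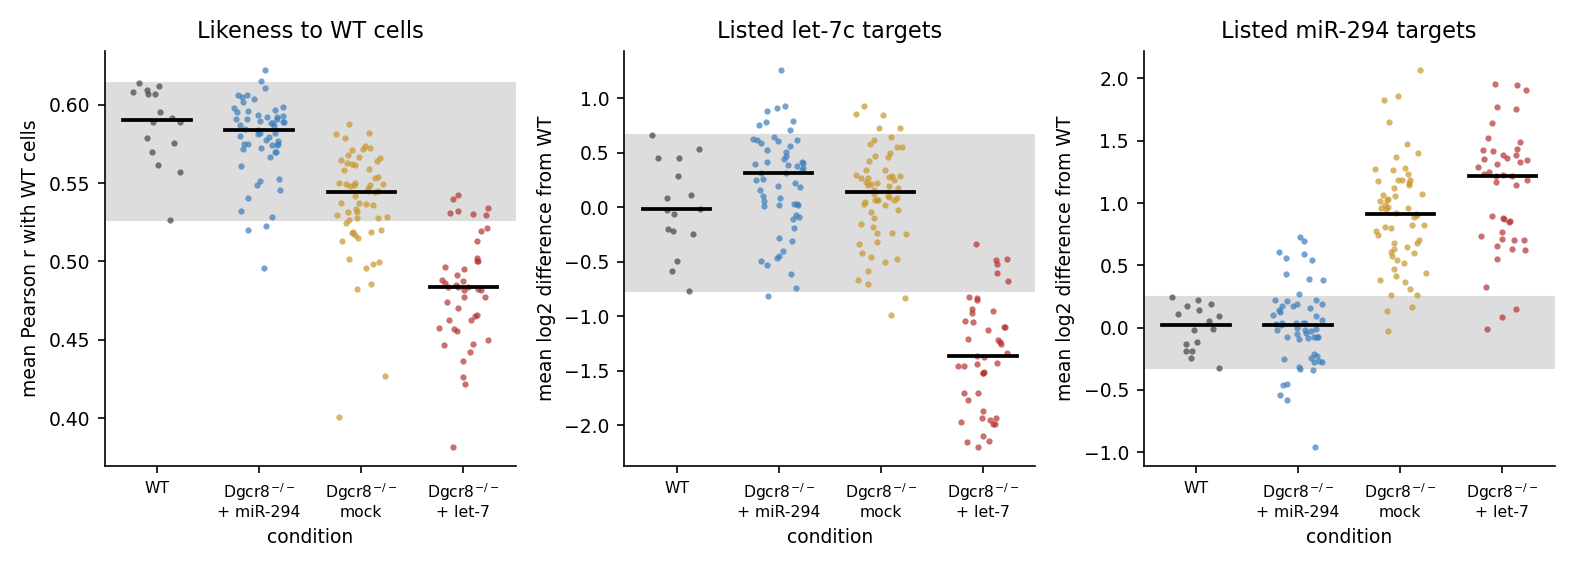
Each point is 1 cell and each bar the median of its condition, with the range of the 16 WT cells shaded; the left panel gives the mean Pearson correlation with WT cells, and the others the mean log2 difference from WT over the listed targets of let-7c and of miR-294. In the left panel 38 of 45 let-7-transfected cells lie below the shaded range, in the middle panel 39 do, and in the right panel 42 lie above it.

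The plots of single cells show that let-7-transfected cells differed from WT in both target lists, in opposite directions. The lists of bulk targets came from an earlier array study of Dgcr8-/- ESCs (169 of 171 genes for let-7c and 494 of 495 for miR-294 passed the filter). The let-7c score, the mean over listed genes of the log2 difference from WT, was -1.36 at the median of let-7-transfected cells (lowest -2.20, highest -0.34), with 39 of 45 cells below the WT range of -0.76 to 0.67. Since cells had been kept on these targets, this count is not independent evidence. The miR-294 score was 1.22 at the median of let-7-transfected cells (lowest -0.01, highest 1.95), and 42 of 45 cells lay above the WT range of -0.33 to 0.25. In mock-transfected cells its median was 0.91, with 57 of 60 cells above that range. In miR-294-transfected cells it was 0.02, with 10 of 57 above and 7 below. The miR-294 list rests on genes lower after miR-294 in Dgcr8-/- cells, and 1 miR-294-transfected cell had been removed on it. The value after miR-294 is therefore not independent evidence. The mean over all genes was itself 0.33 higher than in WT at the median of let-7-transfected cells and 0.26 higher in mock-transfected cells, so the miR-294 score is read against these.

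A gene was called where the mean normalized count differed at least 2-fold from WT (log2 of the mean plus 1) and at least 75% of the pairs of 1 let-7-transfected and 1 WT cell pointed the same way. By this rule 301 genes (2.69% of 11178) were lower and 788 (7.05%) higher in let-7-transfected cells. In mock-transfected cells 128 (1.15%) were lower and 419 (3.75%) higher, and in miR-294-transfected cells 67 (0.599%) were lower and 244 (2.18%) higher. The median log2 ratio of all genes was 0.51 in let-7-transfected, 0.35 in mock-transfected and 0.07 in miR-294-transfected cells. In let-7-transfected cells it was 0.11 for genes with a mean of at least 100 and 0.73 for the rest, so that the shift was mainly among low genes. Of the calls 72.4% were higher, but 56.4% with library sizes, 57.4% with TMM factors and 62.5% after centring the ratios on their median. All 3 ratios divide by the same 16 WT cells, so noise in the WT mean moves them together, and they are given side by side.

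Genes near WT in both other conditions made up a small part of the calls. One class held genes called in let-7-transfected cells and less than 1.5-fold from WT in both mock-transfected and miR-294-transfected cells. It numbered 75 lower (0.671%) and 39 higher (0.349%) genes. Below, genes called, lower or higher in let-7-transfected cells alone are the genes of this class, also named the class of let-7 alone. Those called alike in all 3 Dgcr8-/- conditions numbered 25 lower (0.224%) and 107 higher (0.957%). Those called in let-7-transfected and mock-transfected cells but near WT after miR-294 numbered 12 lower (0.107%) and 36 higher (0.322%). The other 189 lower and 606 higher genes met none of these rules. They include genes called in let-7-transfected cells and in no other condition, such as Dicer1 and Igf2bp3. For these the ratio in mock-transfected or miR-294-transfected cells passed the limit of 1.5-fold, in either direction. Membership of the first class depended on the scaling, as 72 of its 114 genes (63.2%) stayed in it with library sizes, and 25 stayed in it in all 12 alternatives of cells, scaling and filter, 24 of them lower genes. Their call against WT was steadier, as 65 of the 114 were called alike in all 12.

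**Figure D2:**
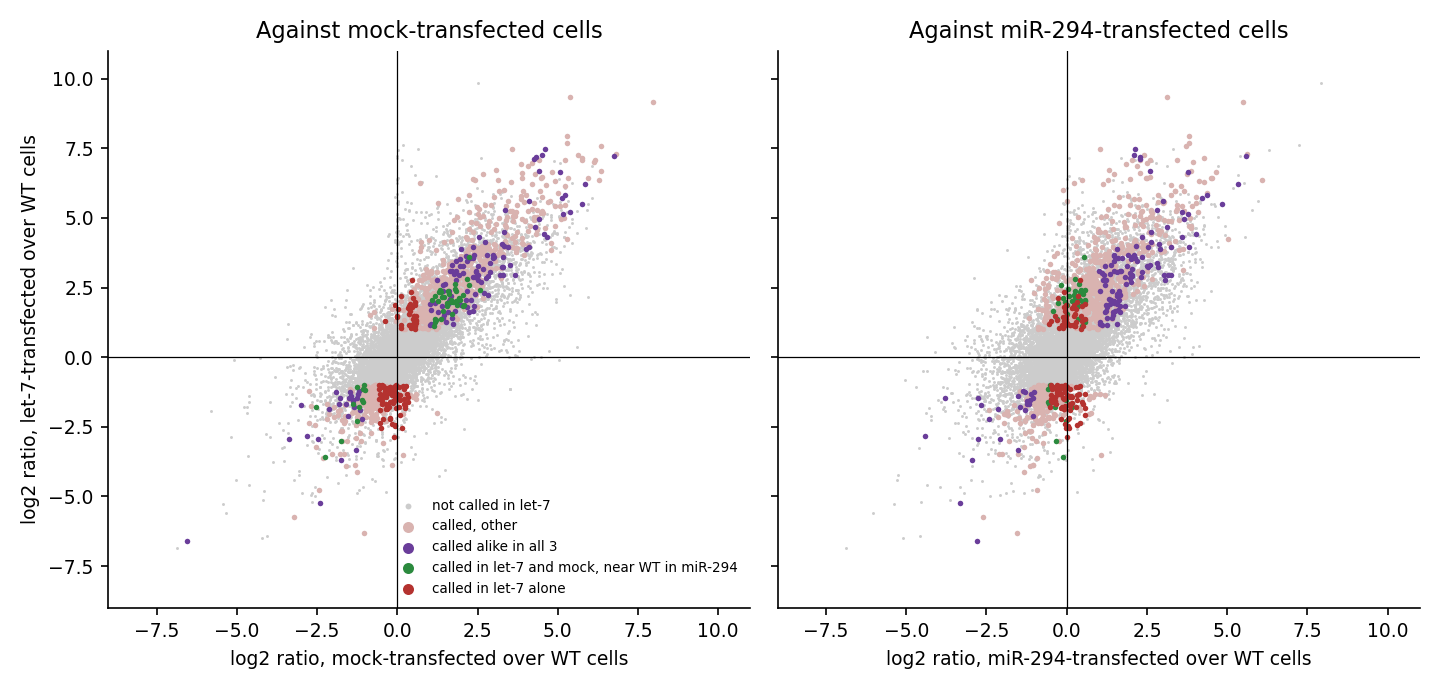
Each point is 1 of 11178 genes, with the log2 ratio of let-7-transfected over WT cells on the vertical axis and that of mock-transfected (left) or miR-294-transfected cells (right) over WT on the horizontal axis; colours give the class of the call. The class marked as called in let-7 alone holds 75 lower and 39 higher genes that were less than 1.5-fold from WT in both other conditions. These genes lie near 0 on both horizontal axes by that definition. Both axes share the WT cells, which draws points toward the diagonal.

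The marker genes are described first. Sall4 (ENSMUSG00000027547, chr2:168748332-168767943), a zinc-finger factor of the pluripotency network, had normalized counts of 442 to 2331 (median 1119) in WT cells and of 0 to 1193 (median 163) in let-7-transfected cells. In 38 of the 45 cells it lay below the lowest WT cell. Its mean was 5.51-fold lower (208 against 1149), with log2 ratios of -2.46 in let-7-transfected, -0.06 in mock-transfected and 0.05 in miR-294-transfected cells. The summed raw counts were 10990 in let-7-transfected cells (95% exact Poisson interval 10785 to 11197) and 22884 in the fewer WT cells (22588 to 23182), and such intervals cover counting error only. For all named class genes the interval reached a median of 4.07% to the farther side of the sum, far less than the spread over cells. Counts were of reads and not of molecules, so amplification adds to that spread.

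Trim71 (ENSMUSG00000079259, chr9:114507133-114564369), an RNA-binding ubiquitin ligase and a classic let-7 target with the 4 matches shown above, ran from 424 to 1145 (median 602) in WT cells. In let-7-transfected cells it ran from 0 to 523 (median 113), and 43 of 45 cells lay below the WT range. The log2 ratio was -2.06 after let-7, 0.09 in mock-transfected and 0.58 in miR-294-transfected cells, just inside the limit of 1.5-fold. It left the class with pooled counts and without the highest cell. The groups therefore barely overlapped, with 2 let-7-transfected cells inside the WT range.

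Lin28a (ENSMUSG00000050966, chr4:134003330-134018841) did not separate let-7 from the loss of miRNAs. It was counted in 15 of 16 WT cells (lowest 0, median 261, highest 500), in 1 of 45 let-7-transfected cells (2.22%, exact binomial interval 0.0563% to 11.8%) and in 3 of 60 mock-transfected cells (5%, 1.04% to 13.9%). In miR-294-transfected cells it was counted in 26 of 57 (45.6%, 32.4% to 59.3%, highest 262). Thinned to 500000 counts per cell, the shares were 2.22%, 3.33% and 42.1%, and 93.8% in WT cells, the same as without thinning in WT and let-7-transfected cells. The log2 ratios were -6.61, -6.56 and -2.79, the first resting on 40 counts in 1 cell. With mock-transfected cells near 0 already, a further decrease after let-7 was not measurable. Lin28b had low levels in every condition (means of 12 in let-7-transfected, 8 in WT, 17 in mock-transfected and 14 in miR-294-transfected cells).

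Among the 37 tested genes of a list of oncofetal let-7 targets, 10 were called lower and 1 higher in let-7-transfected cells, against 1 lower and 1 higher in each other condition. Of all genes 2.69% were called lower and 7.05% higher after let-7. The shares were 1.15% and 3.75% in mock-transfected and 0.599% and 2.18% in miR-294-transfected cells. The list's median log2 ratio was -0.63 after let-7, 0.11 in mock-transfected and 0.06 in miR-294-transfected cells, where all genes had 0.51, 0.35 and 0.07. Of the 10, 7 were in the class of let-7 alone, namely Sall4, Rrm2, Ccnf, Trim71, Set, Gng5 and Igf2bp1. Lin28a, Igf2bp3 (log2 ratio -1.35) and Dicer1 (-1.34) were the others.

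Set (ENSMUSG00000054766, chr2:30057378-30072577), a histone chaperone and inhibitor of protein phosphatase 2A, was the most abundant of these. It ran from 5712 to 16922 (median 11303) in WT cells and from 926 to 9772 (median 3716) in let-7-transfected cells. In 43 of 45 cells it lay below the WT range, with a mean 2.97-fold lower. Its log2 ratio was -1.57 after let-7, -0.47 in mock-transfected and -0.35 in miR-294-transfected cells, and it left the class under 4 scalings because mock-transfected or miR-294-transfected cells then passed the limit, while its call held in all 12 alternatives. The longest 3′ UTR of Set held no let-7 seed match.

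Gng5, a G protein gamma subunit and also a classic let-7 target, was lower by a log2 ratio of -1.49 (median 28.4 against 113 in WT), with 0.20 and -0.10 in the other conditions. Igf2bp1, an oncofetal mRNA-binding protein, had -1.25 (median 135 against 381), with -0.18 and -0.06. Both stayed in the class in all 12 alternatives, as did Sall4 and Rrm2. Not all classic targets were called lower against WT. Hmga2, a chromatin protein, was counted in 24 of 45 let-7-transfected and 8 of 16 WT cells and had a log2 ratio of -0.99 after let-7 but 1.14 in mock-transfected cells. Mycn stood at -0.93 after let-7, with 1.72 and 1.92 in the other conditions, and Igf2bp2 at -1.23, with 1.14 and 1.33. These 3 genes were not called against WT after let-7, but their means lay below those of mock-transfected cells. The means were 32.3 against 145.5 for Hmga2, 14.3 against 95.2 for Mycn and 21.2 against 113.5 for Igf2bp2. For Nr6a1 (0.08) and Fignl1 (0.07) the let-7-transfected mean was within 1.5-fold of WT. Ccnd1, a G1 cyclin on the list, was called higher (2.26, with 2.18 in mock-transfected cells). Among listed genes without a call, Thbs1 (5.95), Irs2 (5.44), Ccnd2 (5.71) and Hras (1.715) also had higher means than WT after let-7. Their log2 ratios in mock-transfected cells were 2.64, 3.42, 4.36 and 0.11. The WT means of Thbs1 and Irs2 were 0, so the size of their ratios depends on the 1 added to each mean. Other genes without a call had lower means, such as Plagl2 (-3.545) and Cdc25a (-1.63).

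Genes of the cell cycle made up part of the let-7 class. Rrm2 (ENSMUSG00000020649, chr12:24708241-24714146), the regulated subunit of ribonucleotide reductase, ran from 37 to 2108 (median 808) in WT and from 0 to 875 (median 42.3) in let-7-transfected cells, with 21 of 45 cells below the WT range. Its log2 ratio was -2.41, with -0.17 and -0.06 in the other conditions. Cdc6, which loads the replicative helicase, was counted in 17 of 45 let-7-transfected and 15 of 16 WT cells (log2 ratio -2.23). Ccnf, encoding cyclin F, was counted in 21 of 45 and 15 of 16 (-2.19), and the mitotic checkpoint kinase Ttk in 23 of 45 and 14 of 16 (-1.78). Gtse1, a G2 and S phase protein that restrains p53, had -2.23. Ttk lost its call with the first run of each cell and left the class after centring, and Cdc6 and Ccnf each left the class in 2 of the 12 alternatives, while Rrm2 and Gtse1 stayed in it in all.

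Taken as lists, 6 of 42 G1/S genes and 8 of 37 G2/M genes were called lower after let-7 and 0 higher. In mock-transfected cells these counts were 1 and 3 lower with 0 higher. Of all genes 2.69% were called lower after let-7 and 1.15% in mock-transfected cells. The medians were -0.44 for G1/S and -0.55 for G2/M genes after let-7, against 0.09 and -0.42 in mock-transfected and 0.06 and -0.21 in miR-294-transfected cells. Cells were spread widely. The G2/M score ran from -5.37 to 1.82 in let-7-transfected cells, with 20 of 45 below and 4 above the WT range of -2.86 to 1.24, so cells with high G2/M genes were present among them. Ccnb1, encoding cyclin B1, was outside the class of let-7 alone, with -1.8 after let-7, -1.18 in mock-transfected and -0.35 in miR-294-transfected cells.

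Of 15 tested inhibitors of the cell cycle 3 were called higher (Cdkn1a, Lats2 and Gadd45a) and 0 lower, where 7.05% of all genes were called higher. The median was 1.74 after let-7 and 1.01 in mock-transfected cells, against 0.51 and 0.35 for all genes, and with pooled counts it was 1.01 after let-7. Cdkn1a, which encodes p21 and has 2 miR-294 matches, ran from 0 to 184 (median 35.5) in WT and from 2.57 to 2284 (median 264) in let-7-transfected cells, and 28 of 45 cells lay above the WT range. Its log2 ratio was 2.61 after let-7 and 2.22 in mock-transfected cells, but -0.17 after miR-294. Gadd45a, a stress-responsive gene, had 3.94 after let-7 with 0.74 and 1.10 in the other conditions, and Lats2, a kinase of the Hippo pathway, 3.88 with 3.04 and 1.98.

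Of 36 tested pluripotency genes 5 were called lower (Tcl1, Sall4, Nanog, Esrrb and Jarid2) and 2 higher (Klf5 and Spp1), where 2.69% of all genes were lower and 7.05% higher. The median was -0.27, against 0.51 for all genes. Nanog (ENSMUSG00000012396, chr6:122707489-122714633) ran from 196 to 1438 (median 758) in WT cells and from 0 to 1388 (median 43.8) in let-7-transfected cells, of which 26 of 45 lay below the WT range and 19 within it. Its log2 ratio was -1.77, with -0.28 in mock-transfected and -0.05 in miR-294-transfected cells. It left the class after centring, and its longest 3′ UTR held no let-7 match. Jarid2, a Polycomb partner, stood at -1.01, just past the 2-fold limit, and lost its call in 4 of the 12 alternatives.

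Esrrb, an orphan nuclear receptor, had a log2 ratio of -1.48, and mock-transfected cells -0.96. Tcl1, a co-activator of Akt, had -3.0, with -1.75 in mock-transfected and -0.34 in miR-294-transfected cells. Pou5f1, encoding Oct4, was not lower than WT, with a median of 215 against 115 and log2 ratios of 0.80, 1.39 and 1.33 in let-7-transfected, mock-transfected and miR-294-transfected cells. Sox2 had a log2 ratio of -0.33, Zfp42 -0.23, Dppa5a -0.11 and Tdgf1 -0.02. Klf5, a Krüppel-like factor of naive ESCs, was called higher (1.74, with 0.01 and 0.28), but lost the call with library sizes and with TMM factors. Spp1, encoding osteopontin, was above the WT range in 42 of 45 cells (lowest 1326, median 4953, highest 19524, against 251, 1036 and 2557 in WT), and had log2 ratios of 2.50, 1.2 and 0.94.

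**Figure D3:**
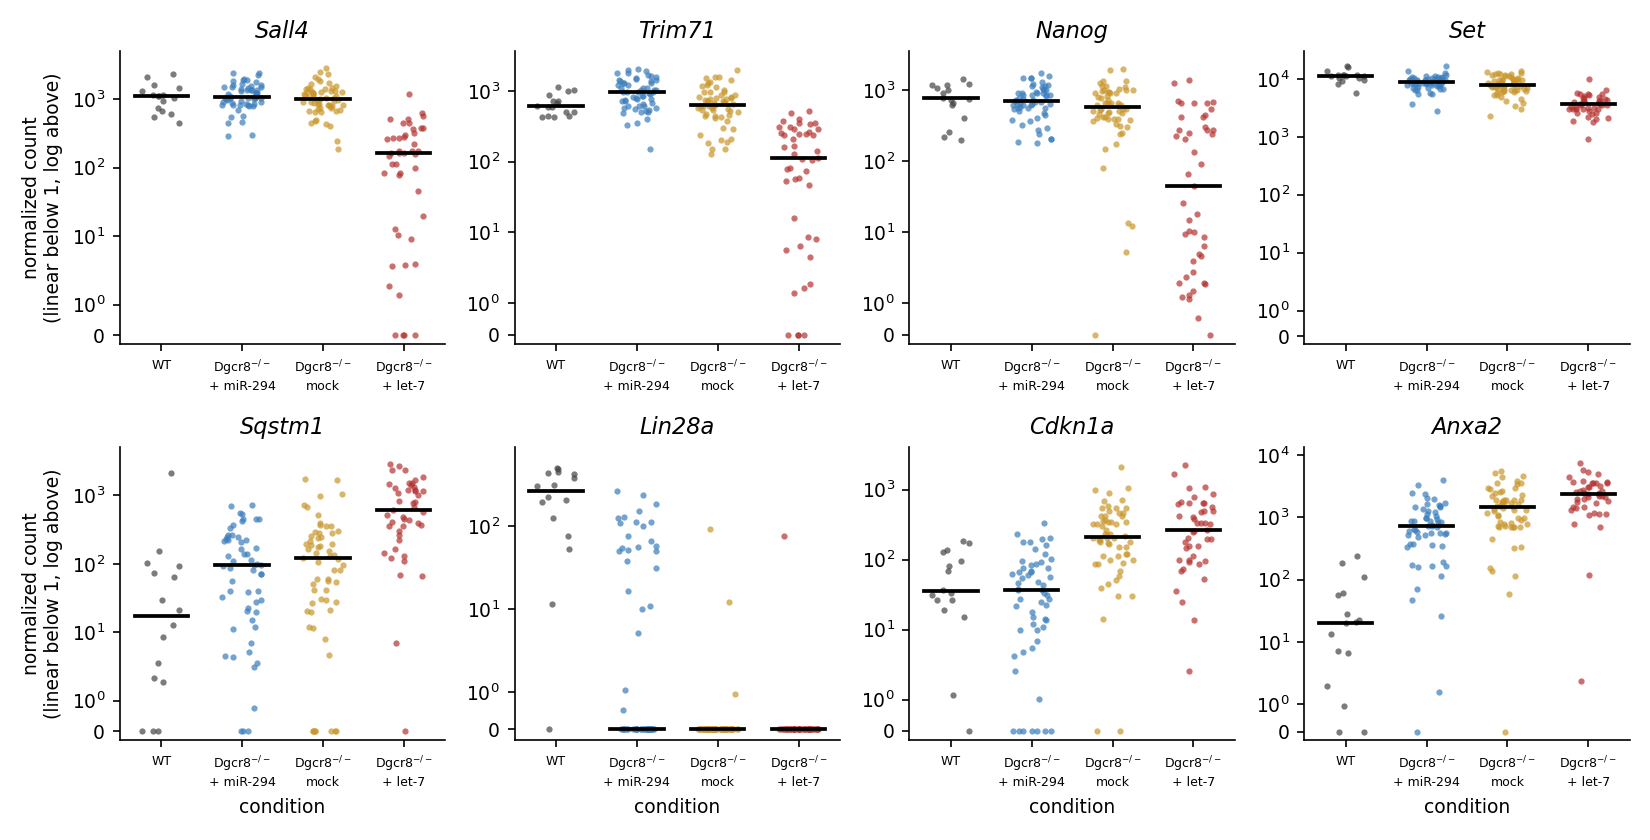
Each point is the normalized count of 1 gene in 1 cell, on an axis that is linear below 1 and logarithmic above, and each bar is the median of the condition. Sall4, Trim71, Nanog and Set have their lowest and Sqstm1 its highest median in the let-7-transfected cells, Lin28a is near 0 in let-7-transfected and mock-transfected cells, Cdkn1a is high in those conditions and not after miR-294, and Anxa2 is high in all 3 Dgcr8-/- conditions.

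Of 34 tested genes of Myc-linked ribosome biogenesis and growth, 8 were called lower and 0 higher after let-7 (median -0.48, against -0.16 in mock-transfected and 0.09 in miR-294-transfected cells). Of all genes 2.69% were called lower and 7.05% higher after let-7, with a median log2 ratio of 0.51. In the class of let-7 alone were Gnl3, the nucleolar GTPase nucleostemin (-1.35), the cap-binding factor Eif4e (-1.32), Cad, which starts pyrimidine synthesis (-1.2), and the nucleolar chaperone Nolc1 (-1.15). Cad lost its call with the first run of each cell, and Gnl3 left the class in 4, Eif4e in 2 and Nolc1 in 1 of the 12 alternatives while keeping their calls. Fbl, Odc1, Wdr12 and Srm were the others called, of which Fbl (-1.58) and Odc1 (-1.25) were called lower in all 3 conditions. Myc itself was counted in 6 of 45 let-7-transfected and 8 of 16 WT cells, with log2 ratios of -1.8 after let-7 and -1.82 in mock-transfected cells. The glycolytic enzyme Pgam1 (-1.38) was also in the class. Cytosolic ribosomal protein genes lay near WT, with a median of -0.12 over 85 genes.

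Among genes of miRNA processing and silencing, Ago2, the Argonaute that cleaves paired targets, had log2 ratios of -1.34 after let-7, -0.03 in mock-transfected and -0.17 in miR-294-transfected cells, and lay below the WT range in 18 of 45 cells. Its 3′ UTR held 3 let-7 matches. Tarbp2, the partner of Dicer1, had a log2 ratio of -3.52 after let-7, with 0.17 and 1.08 in the other conditions, and 35 of 45 cells lay below the lowest WT cell (0, 0 and 103 at the lowest, median and highest, against 1.8, 59.4 and 180). Tarbp2 was outside the class of let-7 alone only because its miR-294-transfected mean was more than 1.5-fold above WT. Dicer1 was in the same position (-1.34, with 0.25 and 1.04). Of 23 tested genes of this list 5 were called lower and 1 higher (Tnrc6b), where 2.69% of all genes were lower and 7.05% higher. The list's median of 0.13 turned to -0.19 with library sizes, -0.14 with TMM factors, -0.25 with pooled counts and -0.38 after centring.

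Of the remaining genes lower in let-7-transfected cells alone, the largest ratios belonged to low or sparsely counted genes. Myo1f, a class I myosin, was counted in 10 of 45 let-7-transfected and 13 of 16 WT cells (log2 ratio -2.87). Hic2, a transcriptional repressor with 4 let-7 matches, was counted in 10 of 45 and 11 of 16 (-2.55), and lost its call when the first run of each cell was used. Eme1, part of a DNA repair nuclease, was counted in 10 of 45 and 14 of 16 (-2.44). Gtsf1l (-2.55) and Fgd1 (-2.35) left the class in 5 and 6 of the 12 alternatives.

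The 39 genes higher in let-7-transfected cells alone had a smaller median (1.37, against 0.45 in mock-transfected and 0.10 in miR-294-transfected cells) and were less stable. Sqstm1 (ENSMUSG00000015837, chr11:50199366-50210827), encoding the autophagy receptor p62, ran from 0 to 2153 (median 17) in WT and from 0 to 2872 (median 609) in let-7-transfected cells. The WT mean of 170 was raised by 1 high cell, and the medians of mock-transfected (121) and miR-294-transfected cells (96.3) lay above that of WT. Its log2 ratio was 2.34, with 0.44 and -0.08 in the other conditions, and 4.40 without the highest cell of each condition. Then mock-transfected or miR-294-transfected cells passed the limit of 1.5-fold, so it left the class. Atg3, an enzyme of autophagosome formation, had 2.79 (counted in 30 of 45 let-7-transfected and 1 of 16 WT cells) and left the class in that alternative and with pooled counts. The LIM protein Ajuba had 2.21, with 0.12 and 0.36, and lost its call with library sizes and TMM factors, as did Fam177a (1.96). Crebl2 (2.14), Fam25c (1.89), Tax1bp3 (1.89) and Spata13 (1.86) completed the 8 with the largest ratios. Without the highest cell of each gene and condition, 17 genes were in this class instead of 39.

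Seed matches were unevenly spread over the classes. Of the genes lower in let-7-transfected cells alone with an annotated 3′ UTR, 21 of 72 (29.2%) held CTACCTC in the longest 3′ UTR, against 1252 of 10308 tested genes (12.1%). Of the genes higher in let-7-transfected cells alone 1 of 31 (3.23%) did, of those lower in all 3 conditions 4 of 25 (16%), and of those lower in mock-transfected cells 14 of 117 (12%). UTR length did not differ much, with a median of 1346 bases against 1383 in all genes. Within UTRs of 1000 to 2000 bases the share was 6 of 18 (33.3%) against 11.2% of all genes, and in longer ones 9 of 25 (36%) against 21.9%. In the 12 alternatives of cells, scaling and filter the share in the class of genes lower after let-7 alone ran from 27.7% to 36.1%. Of the 75 genes in this class 15 were listed let-7c targets, defined by lower levels in bulk and a seed match. The let-7-transfected cells had been kept on that list, so the share is not independent evidence.

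Over all genes with UTRs of 1000 to 2000 bases, those with a let-7 match had a median log2 ratio of 0.16 after let-7 and those without 0.55, while mock-transfected cells had 0.42 and 0.37. After let-7 the medians with and without a match were -0.09 and 0.47 in UTRs up to 500 bases and 0.09 and 0.55 in those of 500 to 1000. In UTRs over 2000 bases, which held 787 of the genes with a match, they were 0.38 and 0.56, and 2.67% and 2.39% of the genes were called lower. Trim71 and Igf2bp1 held 4 matches each, Ago2 held 3, and Sall4, Rrm2, Ccnf and Gng5 held 1 each. The remaining 51 of the 72 genes held none, among them Set, Nanog, Cdc6, Gtse1, Gnl3 and Eif4e. The miR-294 match AGCACTT was held by 13 of 31 genes (41.9%) that were higher in let-7-transfected and mock-transfected cells and near WT after miR-294, against 1967 of 10308 (19.1%) overall. The UTRs of these genes were longer, with a median of 2157 bases against 1383, and the share was not compared within lengths. It ran from 38.7% to 80% (16 of 20 genes, without the highest cell) over the 12 alternatives. The class asks for a level near WT in miR-294-transfected cells, which had been kept on listed miR-294 targets. Those targets were defined in part by a seed match, so this share is not independent evidence either. These matches were counted on the mRNA strand, and CTACCTC and AGCACTT do not overlap each other.

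**Figure D4:**
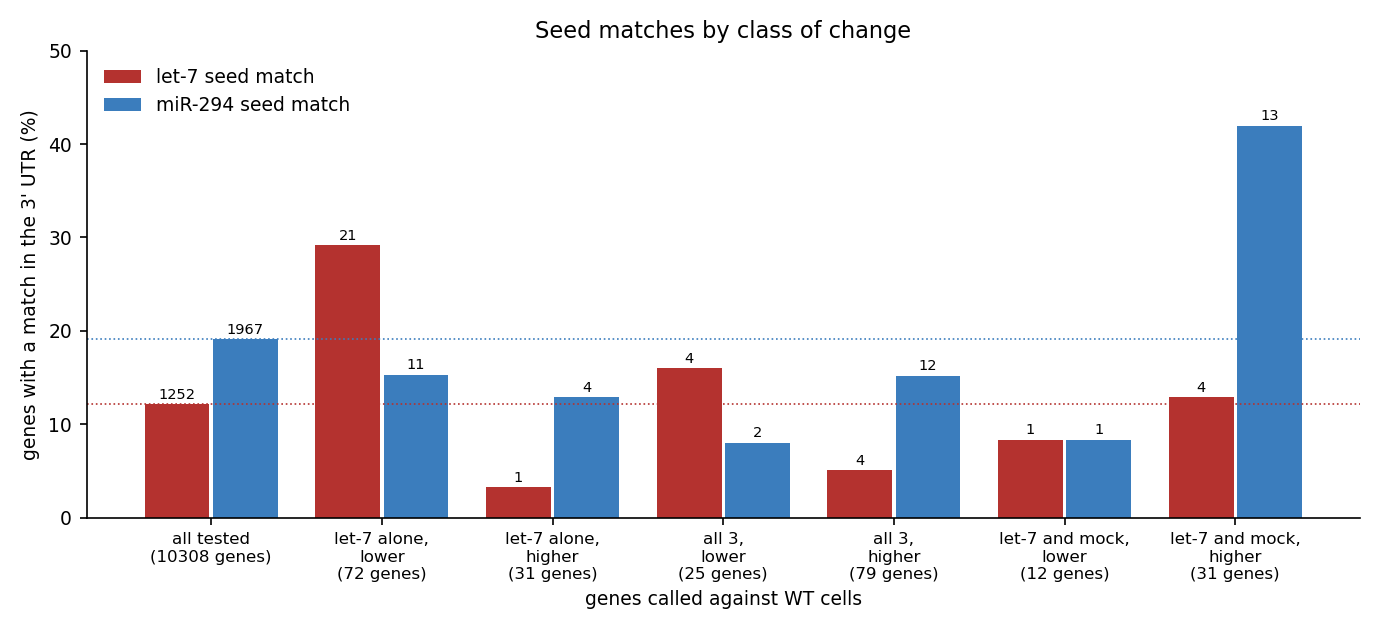
Bars give the percentage of genes whose longest 3′ UTR holds a let-7 (red) or miR-294 (blue) seed match, with the number of such genes above each bar, the number with a UTR below it, and dotted lines at the share in all tested genes. The let-7 bar is highest among genes lower in let-7-transfected cells alone (29.2%), and the miR-294 bar among genes higher in let-7-transfected and mock-transfected cells and near WT after miR-294 (41.9%).

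The genes higher in all 3 Dgcr8-/- conditions had a median log2 ratio of 3.08 after let-7, 2.41 in mock-transfected and 1.86 in miR-294-transfected cells. Anxa2, a membrane-binding annexin, ran from 0 to 238 (median 20.5) in WT and from 2.32 to 7624 (median 2410) in let-7-transfected cells, and 43 of 45 cells lay above the WT range. Its log2 ratios were 5.72 after let-7, 5.13 in mock-transfected and 4.21 in miR-294-transfected cells. Syne2, a nuclear envelope protein of the cytoskeleton linker, had 7.21, 6.77 and 5.58, and was counted in 44 of 45 let-7-transfected and 5 of 16 WT cells. Lgals3, encoding galectin-3, had 5.29, 3.35 and 2.82. Sfn (6.65), Dpp4 (6.23), Myof (5.83), Me1 (5.61) and Cd3d (5.49) were the others of the 8 largest.

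Of 23 tested annexin, S100 and cytoskeletal genes 13 were called higher and 1 lower (Anxa6, not with the first run of each cell) after let-7, 11 and 1 in mock-transfected and 6 and 2 in miR-294-transfected cells. Of 26 lysosomal genes, 12 were called higher and 0 lower after let-7, and 10 and 4 were called higher in the other conditions. Of all genes, 7.05% were called higher after let-7, 3.75% in mock-transfected and 2.18% in miR-294-transfected cells. The shares called lower were 2.69%, 1.15% and 0.599%. Lamp2, a lysosomal membrane protein, was near WT after miR-294 (log2 ratios of 1.88 and 2.07 in let-7-transfected and mock-transfected cells), whereas the protease gene Ctsb was called higher in all 3 (2.30, 2.71 and 1.64). Ctsb and Lamp1 lost their let-7 calls with library sizes and with TMM factors.

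Vim, encoding vimentin, ran from 0 to 433 (median 157) in WT and from 341 to 5540 (median 1594) in let-7-transfected cells, with 44 of 45 cells above the WT range and log2 ratios of 3.65, 2.19 and 0.92. Sparc, a secreted matrix protein, had 3.36, 2.27 and 1.10. Of the 18 listed fibroblast and feeder markers 6 passed the filter, and Vim and Sparc were those called (7.05% of all genes were higher). The mean score of these 6 was above the WT range in 43 of 45 let-7-transfected, 51 of 60 mock-transfected and 25 of 57 miR-294-transfected cells, and the defining collagens were at 0 as given above.

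Of 8 tested transcripts that host miRNAs 4 were called higher after let-7 (Rian, Meg3, Mirg and Mir22hg), 0 in mock-transfected and 1 in miR-294-transfected cells. The shares of all genes called higher were 7.05%, 3.75% and 2.18%. Rian and Meg3, non-coding RNAs of the imprinted Dlk1-Dio3 region, had log2 ratios of 3.37 and 3.34 after let-7, 2.02 and 1.62 in mock-transfected and 0.17 and -0.51 in miR-294-transfected cells. Rian lay above the WT range in 25 of 45 cells and Meg3 in 29. Mir22hg was counted in 39 of 45 let-7-transfected and 4 of 16 WT cells (means of 129 and 1.07, with 17.8 and 20.3 in the other conditions). Of 16 tested imprinted genes 3 were called higher (Rian, Meg3 and Mirg) and 1 lower (Phlda2, which lost its call in 2 of the 12 alternatives). Of all genes 2.69% were called lower after let-7. The stress-responsive factor Atf3 was counted in 29 of 45 let-7-transfected, 10 of 60 mock-transfected and 5 of 57 miR-294-transfected cells, and in 1 of 16 WT cells with 1 count.

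Among genes lower in all 3 conditions beside Lin28a was Pla2g1b, a secreted phospholipase, which had 0 counts in 45 let-7-transfected cells and a mean of 36.6 in WT. Taking 3 counts over the let-7-transfected cells as the floor, it was at least 549-fold lower. Alms1 (-3.69), Golga7 (-3.32), Bex4 (-2.96), Slc38a4 (-2.95), Fmr1nb (-2.83) and Pclaf (-2.21) were others of the 8 with the lowest log2 ratios. Nasp, a chaperone of histone H3 and H4, was below the WT range in 40 of 45 let-7-transfected, 53 of 60 mock-transfected and 37 of 57 miR-294-transfected cells, with log2 ratios of -2.10, -1.52 and -1.05. Dnmt3b, a de novo DNA methyltransferase, had -2.64, -1.76 and -1.19 and was called in let-7-transfected cells.

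Of the genes near WT only after miR-294, a few are given here that were chosen after their values had been seen. Zbtb38, a methyl-DNA binding factor, had a median of 1527 in let-7-transfected, 846 in mock-transfected, 240 in miR-294-transfected and 290 in WT cells (log2 ratios 2.45, 1.79 and 0.04). Creb3, a membrane-bound transcription factor, had log2 ratios of 2.79, 2.17 and 0.25. Rangrf had -3.57, -2.24 and -0.10. 

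The ferritin genes were called in opposite directions. Ftl1, the light chain, ran from 3307 to 16152 (median 5559) in WT and from 677 to 13478 (median 1847) in let-7-transfected cells, with 38 of 45 below the WT range, and its log2 ratios were -1.32, 0.58 and 0.87. Fth1, the heavy chain, was above the WT range in 31 of 45 cells, with 1.63, 0.46 and 0.90. Ftl1 has near-identical copies in the genome, between which the estimate of its counts may be split. The 2-cell-like Zscan4 genes reached a summed normalized count of 100 in 3 of 45 let-7-transfected, 1 of 60 mock-transfected, 2 of 57 miR-294-transfected and 0 of 16 WT cells. A single let-7-transfected cell reached 44374, and without it the summed raw count in the condition was 16901 instead of 100074. None of the 12 tested genes of the 2-cell-like list was called.

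Lineage genes were sparse. Of 30 primed and lineage markers 14 passed the filter, of which Krt8 and Nes were called higher and Dnmt3b lower after let-7. In each other condition 1 was called higher and 2 lower. The list's median was 2.23 after let-7, 2.005 in mock-transfected and 0.62 in miR-294-transfected cells, where all genes had 0.51, 0.35 and 0.07. Of the 14 genes 4 had 0 counts in let-7-transfected or WT cells. Of all genes 7.05% were called higher and 2.69% lower after let-7. The shares were 3.75% and 1.15% in mock-transfected and 2.18% and 0.599% in miR-294-transfected cells. Nes lost its call with the first run of each cell and when thinned. Otx2 was counted in 7, Gata4 in 6 and Nes in 23 of 45 let-7-transfected cells, and in 0 of 16 WT cells each, for which the exact binomial interval reaches 20.6%. Otx2 and Gata4 were not called and were chosen after their values were seen. Krt8, a keratin of simple epithelia, had log2 ratios of 5.20, 5.38 and 3.59 and was thus as high in mock-transfected cells.

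**Figure D5:**
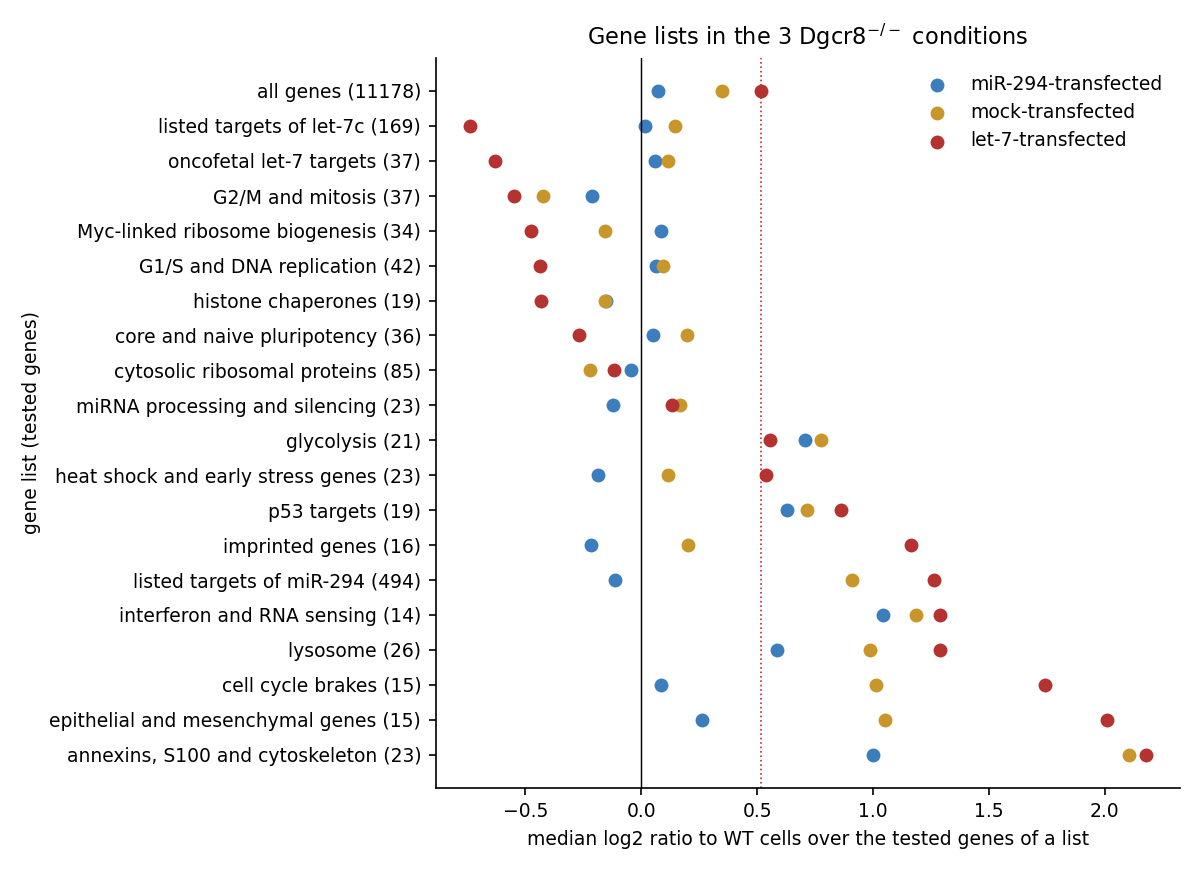
Points give the median log2 ratio to WT cells over the tested genes of each list, with their number, in let-7-transfected, mock-transfected and miR-294-transfected cells; the dotted line marks the median of all genes after let-7 (0.51). Listed let-7c targets (-0.74) and oncofetal targets (-0.63) lie lowest after let-7, and listed miR-294 targets are high after let-7 (1.26) and in mock-transfected cells (0.91) but not after miR-294 (-0.11).

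Of 19 tested p53 targets 5 were called higher after let-7 (Tnfrsf10b, Eda2r, Cdkn1a, Plk2 and Perp) and 1 lower (Gtse1), with 4 and 0 in each other condition and a median of 0.86 after let-7. For these lists, 7.05% of all genes were called higher and 2.69% lower after let-7, with a median of 0.51. In mock-transfected cells 3.75% were higher and 1.15% lower, and in miR-294-transfected cells 2.18% and 0.599%. Tnfrsf10b lost its call in 4 of the 12 alternatives (library sizes, TMM factors, centring, and without the cells whose runs differ), and Eda2r and Plk2 lost theirs when thinned. Of 15 epithelial and mesenchymal genes 4 were called higher, namely the integrin Itgb1 and the cadherin Cdh2 beside Sparc and Vim (median 2.01). Of 23 heat shock and early stress genes Hspb1, Jun, Ier3 and Atf3 were called higher and Hspe1 lower, with a median of 0.54, close to that of all genes. Ier3 lost its call when thinned. Of 15 DNA methylation genes Dnmt3b and Uhrf1 were called lower and 0 higher (median -0.04), and of 13 mitochondrially encoded mRNAs 0 were called.

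The plot of list medians sets the target lists beside these groups. Of the 169 tested listed let-7c targets 35 were called lower (against 2.69% of all genes) and 0 higher after let-7, and 15 of these were in the class of let-7 alone. In mock-transfected cells 1 was lower and 3 higher. Of the 494 tested miR-294 targets 87 were called higher (against 7.05% of all genes) and 2 lower after let-7. In mock-transfected cells 42 were higher and 1 lower, and in miR-294-transfected cells 1 and 5. Of all genes 3.75% were higher and 1.15% lower in mock-transfected cells, and 2.18% and 0.599% in miR-294-transfected cells. Both target lists were chosen from bulk arrays, and each was also used to keep the cells given its miRNA. Their directions in those cells are therefore not independent evidence.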

How the data were processed

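Single ESCs were captured on a Fluidigm C1 system, and each deposited table is 1 run of 1 cell. The authors aligned reads and counted them per Gencode M4 gene with RSEM 1.2.19, and deposited an unnormalized expected count per gene beside an FPKM, left unused here. They had removed shallow cells and transfected cells without lower targets. Here, runs of the same cell were added up and the expected counts rounded. Cells agreeing as closely as 2 runs of 1 cell were averaged, where run pairs with r below 0.9 were left out in setting that limit, a choice made after seeing the data. Counts were scaled with DESeq-type size factors, computed on 863 genes present in each cell, and genes averaging 5 counts or more over cells were kept (11178, of which 63 had no symbol). Levels are means over cells, and ratios are log2 of levels plus 1. A call needed 2-fold and 75% of cell pairs (ties counted as 0.5). Each condition was 1 sample, so no test was made between conditions, and replicate numbers in the titles are runs. Depth per cell was at least 513521 counts, and intervals (exact, 95%) cover counting error only. Thinned values used 500000 counts per cell.

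Named genes were members of the marker, oncofetal and pluripotency lists, called members or up to 4 abundant members of other lists, Dgcr8, and the 8 largest ratios in each direction of the genes called in let-7-transfected cells alone and of those called in all 3 conditions, with a mean of at least 20, leaving out genes without a proper name. The members and lists were chosen with earlier results of these data known. Positions and 3′ UTRs are of Gencode M21 (GRCm38), a later release than that used for counting. Python 3.11.15, numpy 2.4.6, scipy 1.17.1, pandas 2.3.3 and edgeR 4.0.16 (TMM factors, R 4.3.3) were used. The calling code was tested on simulated data. Alternatives changed scaling, filter, pseudocount, runs, cells, depth and the call rule.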

Additional observations from a re-analysis of the deposited data

How the results depend on the processing

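The direction of every named called gene held in all 12 alternatives of cells, scaling and filter, and of 138 such genes between 130 (thinned to 500000 counts) and 138 (no filter, pseudocount 5, or the filter on the mean of the condition means) kept their call. Genes lower in let-7-transfected cells numbered 497 with library sizes, 477 with TMM factors, 1102 without the condition on cell pairs and 79 at 4-fold, in place of 301. Those higher numbered 4166 without the condition on cell pairs and 551 at 4-fold, in place of 788. With a limit nearer to WT for the other conditions, 28 genes were lower and 5 higher in let-7-transfected cells alone, and without the highest cell of each gene and condition 17 were higher. The median correlation of let-7-transfected with WT cells was 0.658 on counts without log and 0.634 without a filter (WT cells 0.848 and 0.712), and the number of cells below the WT range ran from 30 to 38 over the 8 alternatives. The median of the miRNA processing list turned to -0.19 with library sizes, -0.14 with TMM factors, -0.25 with pooled counts and -0.38 after centring. Over the scalings, runs and depth tried, the median of the cell cycle inhibitors ran from 1.01 to 1.87, of oncofetal targets from -1.15 to -0.58, of G1/S genes from -0.95 to -0.44, of G2/M genes from -1.07 to -0.40, of ribosome biogenesis genes from -0.99 to -0.48, of pluripotency genes from -0.78 to -0.20 and of listed miR-294 targets from 0.75 to 1.35, with the lowest values after centring except for the inhibitors (pooled counts). No scaling turned the sign of another list tried, which left out ribosomal protein and mitochondrial genes. Alternatives chosen after seeing the data were leaving out the cells whose runs differ (318 lower, 767 higher), centring the ratios (408 and 679), the filter on condition means (301 and 786), and the list medians and seed matches under each setting. Where a count moved, the cause was not tested.

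No paired analysis was possible because each condition was 1 sample and the replicate numbers are runs of a cell. Depth limits genes counted in few cells, which the condition on cell pairs rarely calls. Chip, culture and condition cannot be told apart, and neither can the knockout and other differences between the WT and Dgcr8-/- lines. Cells given a mimic were kept on the targets of its miRNA, and the WT group held 16 cells.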
